A study of Arabidopsis thaliana with 16 samples.

Results

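AT3G62950 is an Arabidopsis gene for a glutaredoxin, and its level was followed on 16 arrays of whole seedlings that had met hydrogen peroxide (H2O2) with or without the brassinosteroid epi-brassinolide (BL). It is represented by the 1 probe set annotated to it alone, out of 22746 on the array that are not controls, and it was chosen by its measured levels across the H2O2 doses. Its dose levels are therefore a description and carry no test, while its response to BL played no part in the choice and was tested. Every array came from wild-type seedlings of ecotype Col, 12 days old, that had stood in darkness for 1 h. They were then held for 30 min in medium with H2O2 at 0, 1, 5, 25, 50 or 100 mM, and for 1 h more in darkness, with the H2O2 still there, after addition of either BL at 1 µM or only the ethanol it was dissolved in. BL at 0 mM and solvent at 0 mM have 3 arrays each, and each of the 5 higher doses has 1 array with BL and 1 with solvent. The labels do not say whether replicates are separate cultures, so p-values measure only the spread between these arrays, which may be technical.

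Glutaredoxins are small enzymes that use glutathione to reduce disulphides and to remove glutathione from proteins, which ties them to the handling of oxidative stress. Plants have classes with a CPYC-type or a CGFS-type active site, and another class, called the CC type or class III, with a pair of neighbouring cysteines, which is found in land plants and to which AT3G62950 belongs. The best known class III members, ROXY1 and ROXY2 in flower development and GRX480 in defence signalling, work through TGA transcription factors. Peroxiredoxins and thioredoxins are the partner system that removes peroxide and passes on reducing power.

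The values are log2 signals made with GCRMA, and on every array the lowest was 2.12 and the median lay between 5.50 and 5.71. Over the 13140 probe sets with a value of at least 5 on at least 2 arrays, the pair of arrays at a dose above 0 mM had Pearson correlations of 0.987 to 0.995. The third solvent array at 0 mM, called solvent control 3 here, stood apart. It correlated with solvent replicate 1 at 0.907 and with the remaining 0 mM arrays at 0.816 to 0.823. The 0 mM arrays other than it correlated with one another at 0.958 to 0.990. With the H2O2 arrays solvent control 3 correlated at 0.857 to 0.890, higher than with the 0 mM arrays other than solvent replicate 1. The other 0 mM arrays correlated with the H2O2 arrays at 0.890 to 0.935. The changes of AT3G62950 and the called changes of other genes are therefore given with and without it. Whole seedlings hold shoots and roots, and the markers of both were present at 0 mM, with RCA of the shoot at 14.42 ± 0.36 and PYK10 of the root at 13.29 ± 0.64 (SD, n = 6). Fewer cells of a type and less RNA per cell cannot be told apart in such samples.

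AT3G62950 was low without H2O2 and high at every dose from 5 mM upwards. At 0 mM its log2 signal was 3.21, 3.85 and 4.47 on the BL arrays and 4.19, 3.81 and 7.69 on the solvent arrays. Solvent control 3 was thus the highest of the 6 by a wide margin, and the other 5 lay between 3.21 and 4.47. At 1 mM the signal was 6.47 with BL and 7.35 with solvent, so both arrays stood above those 5 and below solvent control 3. At 5 mM it was 8.74 with BL and 9.52 with solvent, and at 25 mM 9.47 with BL and 9.30 with solvent. At 50 mM it was 9.002 with BL and 8.97 with solvent, and at 100 mM 8.40 with BL and 9.03 with solvent. The 8 arrays from 5 to 100 mM, averaging 9.05 ± 0.37 (SD, n = 8), did not overlap with the 6 at 0 mM, averaging 4.54 ± 1.60 (SD, n = 6), solvent control 3 included.

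**Figure D1:**
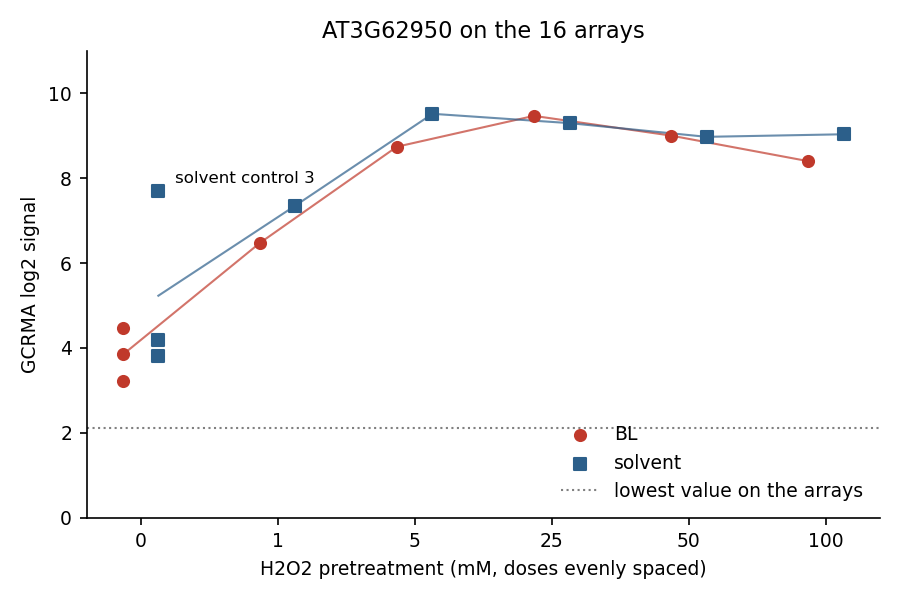
GCRMA log2 signal of AT3G62950 (vertical axis) on each of the 16 arrays against the H2O2 dose in mM (horizontal axis, doses evenly spaced), with BL as circles, solvent as squares and lines through the means of each. The 8 arrays from 5 to 100 mM sit between 8.40 and 9.52, above all 6 arrays at 0 mM, of which solvent control 3 is the highest at 7.69.

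The means at 0, 1, 5, 25, 50 and 100 mM were 4.54, 6.91, 9.13, 9.38, 8.99 and 8.72. The level climbed in the steps up to 5 mM and then stayed on a plateau. The step between 0 and 1 mM was 2.38 on the log2 scale and that between 1 and 5 mM 2.21. The later steps were 0.25 to 25 mM, -0.39 to 50 mM and -0.27 to 100 mM. Put in order of level, 25 mM came first, followed by 5, 50, 100, 1 and 0 mM. Within that order the arrays of neighbouring doses overlapped between 25 and 5 mM, between 5 and 50 mM and between 50 and 100 mM, and also between 1 and 0 mM, where the overlap rests on solvent control 3. Only 100 and 1 mM, among neighbours in that order, had no overlap.

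As differences from the mean at 0 mM, the doses from 1 to 100 mM gave log2 changes of 2.38, 4.59, 4.84, 4.45 and 4.18, which are 5.19-, 24.1-, 28.7-, 21.9- and 18.1-fold. Without solvent control 3, and with BL and solvent weighted equally at 0 mM, they were 2.99, 5.21, 5.46, 5.07 and 4.80. The 0 mM level lies not far above the lowest value of 2.12, so the folds are less certain than the signs. Among 13140 probe sets, the change ranked 276th of all changes ordered from the largest rise at 1 mM, 25th at 5 mM, 9th at 25 mM, 10th at 50 mM and 13th at 100 mM. With solvent control 3 left out the ranks were 205th, 20th, 7th, 5th and 7th, so that array moved the ranks at 50 and 100 mM by over 1.5 times. The median change over all probe sets lay between -0.10 and -0.01 at these doses. The ranking at 100 mM belongs to the choice of the gene. The choice drew on the 10 largest called rises there, among genes with a probe set of their own. AT3G62950 had place 5, and the edge of the 10 ran between CML37 at 3.63 and AT3G60420 at 3.61. Over all probe sets 8.24% were called up there. Since the gene was picked through that list, its place and call in it are no test of the gene.

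With BL present the change from the BL mean at 0 mM was 2.63 at 1 mM, 4.90 at 5 mM, 5.63 at 25 mM, 5.16 at 50 mM and 4.56 at 100 mM. In solvent the change from the solvent mean was 2.12, 4.28, 4.06, 3.74 and 3.80 at the same doses. The solvent changes without solvent control 3 were 3.35, 5.52, 5.30, 4.97 and 5.03, so which BL state showed the larger change depended on that array at 1, 5 and 100 mM.

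Other measures moved with dose as well. For actin, GAPDH and ubiquitin control probe sets, signal at the 3' end less that at the 5' end, a sign of RNA quality and labelling, averaged 2.66 at 1 mM, 2.73 at 5 mM, 2.98 at 25 mM, 2.93 at 50 mM and 3.24 at 100 mM, against 2.73 ± 0.05 (SD, n = 6) at 0 mM. The 5 mM arrays lay within the range at 0 mM, 2.65 to 2.81, and those from 25 to 100 mM lay above it. The mean log2 signal of 5 root markers with a probe set of their own, of 7 listed, lay between 5.42 and 6.23 on the 10 H2O2 arrays, against 7.31 to 7.82 on the 0 mM arrays other than solvent control 3, which had 5.96. Of these markers, EXPA7 of root hairs and the cellulase gene GH9C1 were at 2.12 to 2.44 on every H2O2 array. Both were low at 0 mM too, averaging 4.08 and 3.17, and did not have at least 5 on 2 arrays. AT4G26010 averaged 7.75 at 0 mM and lay between 2.66 and 6.09 on the H2O2 arrays. AT5G17820 averaged 8.57 at 0 mM and lay between 5.82 and 7.42 on them. PYK10 was between 13.04 and 14.13 on the H2O2 arrays. The part of the root markers or of the control probe sets in the level of AT3G62950 was not tested.

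BL did not change AT3G62950 past the threshold, either without H2O2 or with it. At 0 mM the BL arrays averaged 3.84 ± 0.63 and the solvent arrays 5.23 ± 2.14 (SD, n = 3 each), a difference of -1.39 (SE 1.05, 95% interval -3.96 to 1.18, limma adjusted p = 0.534). An exact two-sided permutation test of the same arrays gave p = 0.5, where the smallest p that 3 against 3 arrays allow is 0.1. The difference was -0.16 without solvent control 3 (limma adjusted p = 0.899). In that comparison limma called 3 probe sets of 13140, 0.0228%, and AT3G62950 was not among them.

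Under H2O2 the BL array was lower than its solvent partner by 0.88 at 1 mM, by 0.78 at 5 mM and by 0.63 at 100 mM, and higher by 0.17 at 25 mM and by 0.03 at 50 mM. The pairs thus did not run one way. Over the 5 doses the BL arrays averaged 8.42 ± 1.15 and the solvent arrays 8.83 ± 0.86 (SD, n = 5 each), with a mean difference of -0.42 (SE 0.64, 95% interval -1.83 to 1.00, limma adjusted p = 1.00). An exact two-sided sign-flip permutation test of the 5 pairs gave p = 0.25, with 0.0625 as the smallest it allows. limma called 0 probe sets for this mean (0%), and 122 had an unadjusted p under 0.05. The response under H2O2 minus that at 0 mM was 0.97 (SE 1.04, 95% interval -1.34 to 3.28, limma adjusted p = 0.574), and it was -0.26 without solvent control 3. Of 13140 probe sets 0.0609% were called for that difference. The intervals at 0 mM and for the difference reach beyond 1 log2 unit on both sides of 0, and that for the mean under H2O2 does so below 0.

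**Figure D2:**
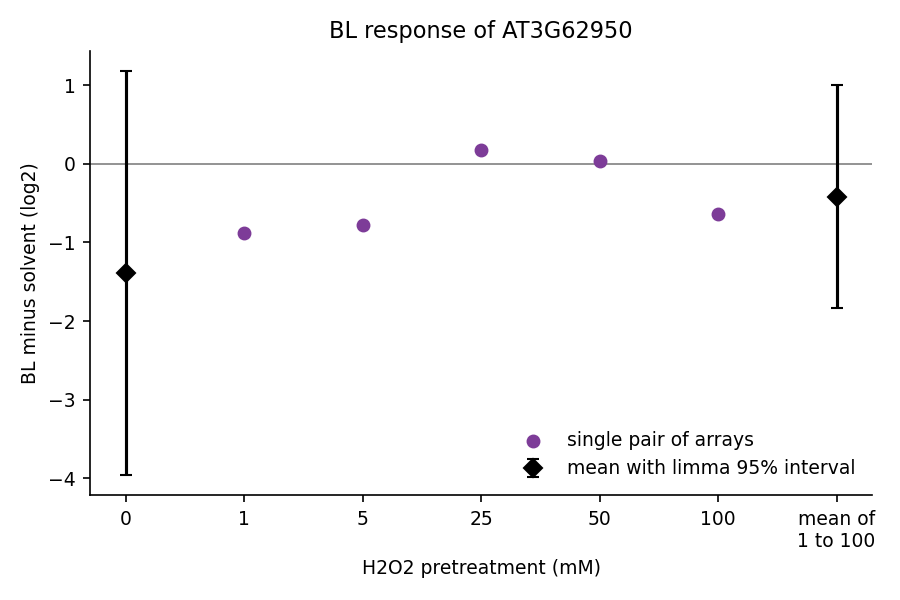
BL minus solvent of AT3G62950 in log2 units (vertical axis) by H2O2 dose in mM (horizontal axis). Dots are single pairs of arrays, and diamonds with bars are the limma estimate and its 95% interval at 0 mM and for the mean over 1 to 100 mM. The dots lie between -0.88 and 0.17, and both intervals include 0.

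Of 21 class III glutaredoxin genes listed, 17 had their own probe set by the annotation. Of those, 9 stayed under 5 on every array, among them ROXY1 and ROXY2, and 8 passed the filter, AT3G62950 included. ROXY1 lay between 2.34 and 3.18 and ROXY2 between 2.12 and 3.98 over the 16 arrays. A gene that is high only after H2O2 can pass the filter through those arrays, so the 8 do not stand for the class. AT3G62950, GRX480 and AT1G06830 passed in this way, since at 0 mM only solvent control 3 reached 5 for each. A called rise of GRX480 or AT1G06830, and a count of rises that holds it, is therefore not independent of the filter. Dose was tested for these genes in 1 model of the 16 arrays that also carried a BL term, which sets the 2 arrays of a dose against the 6 at 0 mM.

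The class III relatives called at 1 and 5 mM were mostly called down. Other than AT3G62950, 7 were tested, of which 1 rose and 3 fell at 1 mM, and 1 rose and 4 fell at 5 mM. The gene that rose at both doses was GRX480, and 1 of 7 is near the share of all probe sets called up there. At 25, 50 and 100 mM 2 rose and 0 fell. Over all probe sets 9.6% were called up and 10.5% down at 1 mM, 9.75% and 13.5% at 5 mM, 8.19% and 7.66% at 25 mM, 7.4% and 7.08% at 50 mM, and 8.24% and 7.26% at 100 mM. Their median log2 change was -0.53 at 1 mM, -1.33 at 5 mM, 0.22 at 25 mM, -0.17 at 50 mM and 0.00 at 100 mM, beside medians of -0.10, -0.10, -0.05, -0.03 and -0.01 over all probe sets. With solvent control 3 left out the counts were 1 up and 4 down at 1 mM, 2 up and 4 down at 5 mM, 3 up and 1 down at 25 and at 50 mM, and 2 up and 2 down at 100 mM. Over all probe sets 18.3% were then called up and 27.2% down at 1 mM, 18.1% and 27.4% at 5 mM, 17% and 20.5% at 25 mM, 15.9% and 19% at 50 mM, and 17.7% and 20.6% at 100 mM.

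GRX480 (AT1G28480), a class III glutaredoxin that binds TGA factors in defence signalling, rose at every dose, with its highest levels at the lowest doses. At 0 mM its log2 signal was 3.45, 4.07 and 4.07 with BL and 4.15, 3.38 and 7.25 with solvent, the last again on solvent control 3. It was 9.55 with BL and 9.85 with solvent at 1 mM, and 9.77 with BL and 9.82 with solvent at 5 mM. At 25 mM it was 8.51 with BL and 8.47 with solvent, at 50 mM 7.88 with BL and 8.15 with solvent, and at 100 mM 7.59 with BL and 7.41 with solvent. No H2O2 array overlapped with a 0 mM array.

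GRX480 passed the filter through its H2O2 arrays, so none of its calls given here is independent of the filter. Its rise was 5.30 at 1 mM (SE 0.76, limma adjusted p = 0.000855) and 5.40 at 5 mM (limma adjusted p = 0.00076), and neither call depended on a single array. At 25 mM it was 4.09 (limma adjusted p = 0.00495), lost without the 25 mM BL array (0.110). At 50 mM it was 3.62 (limma adjusted p = 0.00992, and 0.0887 or 0.142 without the solvent or BL array of that dose), and at 100 mM 3.11 (0.0191, and 0.116 or 0.188). The rises were 5.87, 5.97, 4.66, 4.19 and 3.67 without solvent control 3, all called (limma adjusted p at most 7.97e-07). With solvent arrays alone, 1 against 3, they were 4.92, 4.89, 3.54, 3.23 and 2.49. AT3G62950 averaged 6.91 at 1 mM and at most 9.38, at 25 mM, whereas for GRX480 the 1 mM mean of 9.70 lay beside the highest, 9.79 at 5 mM. The difference in shape between the genes was not tested, since the dose levels of AT3G62950 were in view when it was chosen.

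AT1G06830, another class III gene, had its highest H2O2 levels at 5 mM and missed the threshold. Its log2 signal at 0 mM was 2.59, 2.59 and 2.87 with BL and 2.63, 2.63 and 6.30 with solvent, so that all but solvent control 3 lay under 3. At 5 mM it was 5.30 with BL and 5.96 with solvent, and at 100 mM 2.68 with BL and 3.01 with solvent. The change at 5 mM was 2.36 (SE 0.80, limma adjusted p = 0.0544), and 2.90 without solvent control 3 (limma adjusted p = 0.000206). The gene was then also called at 25 mM (1.42, limma adjusted p = 0.0185) and at 50 mM (1.36, 0.024). Without solvent control 3 only H2O2 arrays reached 5 for this gene, so these calls are not independent of the filter. On solvent control 3, then, AT3G62950, GRX480 and AT1G06830 were each above all other 0 mM arrays, as was the class III gene AT5G18600 at 10.99. AT4G15700 at 7.80 and AT3G62930 at 6.09, also of class III, were below them all, and AT4G15680 and AT4G15690 lay within their range. Over 6997 genes with a probe set of their own that passed the filter, 29.9% lay above and 45.2% below on that array.

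AT5G18600, also of class III, rose by less than 1 log2 unit at the 3 highest doses. It was 10.29 ± 0.15 with BL and 10.46 ± 0.47 with solvent at 0 mM (SD, n = 3 each), and averaged 9.85 at 1 mM, 10.29 at 5 mM, 11.14 at 25 mM, 11.11 at 50 mM and 11.13 at 100 mM. The change was 0.76 at 25 mM (limma adjusted p = 0.0257), 0.73 at 50 mM (0.0314) and 0.75 at 100 mM (0.0266). These calls were lost without either array of the dose in question, and those at 50 and 100 mM also without solvent replicate 1 or BL replicate 1 at 0 mM, and at 50 mM without BL replicate 2, with limma adjusted p between 0.0507 and 0.0595. The 3 changes were 0.88, 0.85 and 0.88 without solvent control 3 (limma adjusted p at most 0.000372), where a change of -0.41 at 1 mM was called too (0.0193).

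3 neighbouring class III genes on chromosome 4 fell at the low doses. AT4G15680 averaged 6.47 at 1 mM and 6.31 at 5 mM, against 7.88 ± 0.38 at 0 mM (SD, n = 6), and 7.28 at 100 mM. It changed by -1.41 at 1 mM (SE 0.21, limma adjusted p = 0.0011) and by -1.57 at 5 mM (limma adjusted p = 0.000561), neither of which depended on a single array. AT4G15690 changed by -1.23 (limma adjusted p = 0.00492) and -1.35 (0.00266), and AT4G15700 by -1.67 (0.00945) and -1.40 (0.0193). The calls of AT4G15690 and AT4G15700 at 1 mM were lost without either 1 mM array, and at 5 mM without the BL array, and for AT4G15700 also without the solvent array (limma adjusted p between 0.0556 and 0.215). From 25 to 100 mM none of the 3 was called with all 16 arrays. At 1 and 5 mM the changes without solvent control 3 were -1.44 and -1.61 for AT4G15680, -1.30 and -1.42 for AT4G15690, and -1.91 and -1.64 for AT4G15700, all called (limma adjusted p at most 0.000871). AT4G15700 was then called down from 25 to 100 mM too, by -1.16, -1.31 and -1.32 (limma adjusted p = 0.00065, 0.000324 and 0.000293), and AT4G15680 by -0.64 at 100 mM (0.0313). Of the listed class III genes close to these 3, AT4G15670 had no probe set of its own. AT4G15660 did not pass the filter and was not tested. It averaged 4.01 at 0 mM, 2.88 at 1 mM, 3.08 at 5 mM and 3.33 at 100 mM. Genes of such a cluster are alike, and whether their probe sets pick up one another's transcripts was not tested.

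**Figure D3:**
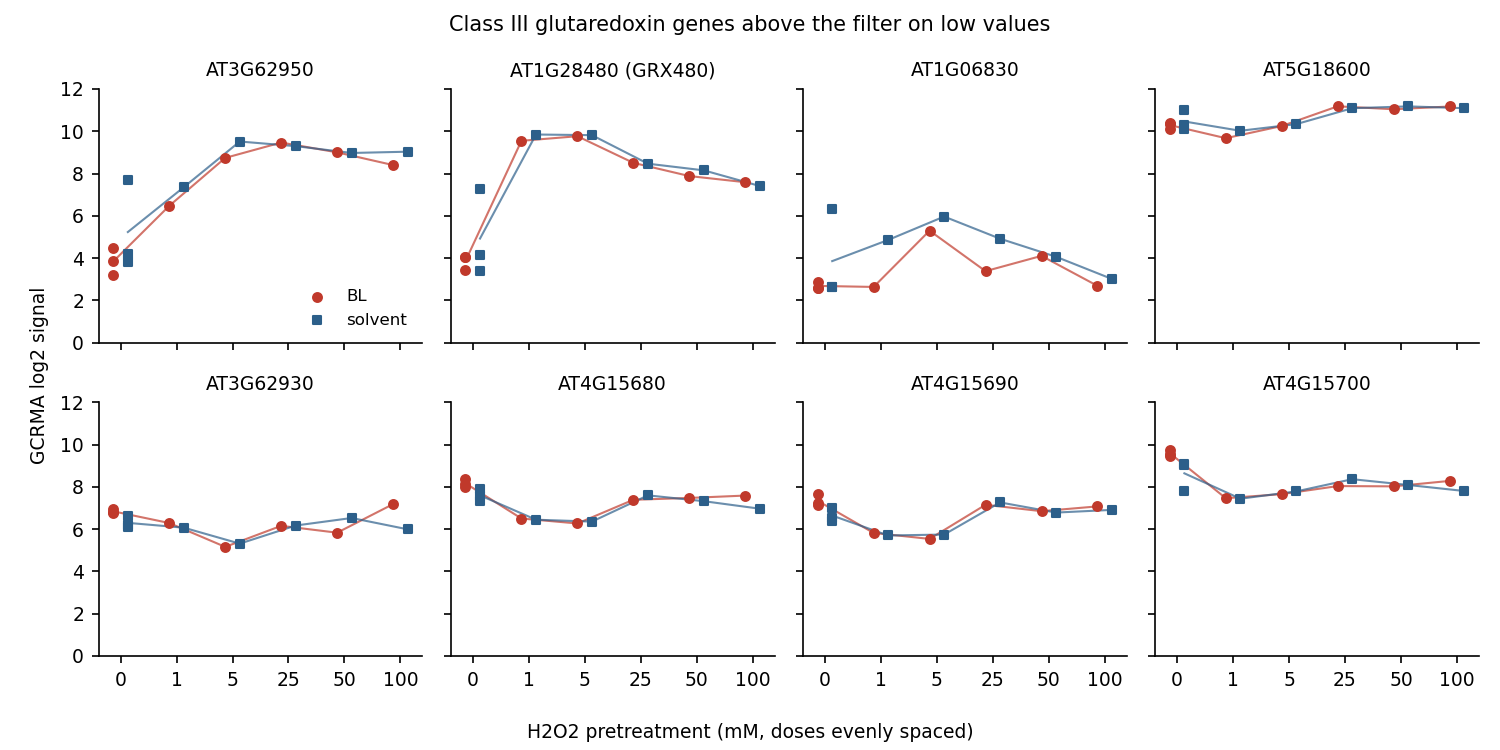
GCRMA log2 signal (vertical axes) of AT3G62950 and the 7 other class III glutaredoxin genes that passed the filter, on all 16 arrays against the H2O2 dose in mM (horizontal axes, evenly spaced), with BL as circles, solvent as squares and lines through the means of each. AT3G62950 stays between 8.40 and 9.52 from 5 mM on, GRX480 is highest at 1 and 5 mM, and the chromosome 4 genes AT4G15680, AT4G15690 and AT4G15700 are lowest at 1 or 5 mM.

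The genes next to AT3G62950 on chromosome 3 differed from 0 mM by at most 1.33 log2 units with all 16 arrays. Of the 3 genes on either side in the RefSeq table, 4 had a probe set of their own and 3 of these passed the filter. The class III glutaredoxin gene AT3G62960, on one side, was at 2.12 on all 16 arrays. The class III gene AT3G62930, on the other side, was 5.16 with BL and 5.31 with solvent at 5 mM, against 6.84 ± 0.12 with BL and 6.30 ± 0.28 with solvent at 0 mM (SD, n = 3 each). It fell by 1.33 at 5 mM (SE 0.29, limma adjusted p = 0.00832), but not when the BL array at 5 mM was left out (0.135), and was not called at another dose, with 6.59 at 100 mM. The change at 5 mM was -1.41 without solvent control 3 (limma adjusted p = 0.0021). AT3G62920 rose by 1.02 at 1 mM (SE 0.24, limma adjusted p = 0.0132), lost without either 1 mM array (0.0569 and 0.205). It was called up at every dose without solvent control 3, by 1.15 at 1 mM and by 0.55 to 0.74 at the others (limma adjusted p between 0.00025 and 0.0212). AT3G62970 stayed between 8.16 and 9.01 on all arrays and was called at no dose.

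Class I glutaredoxins, with a CPYC-type active site, differed from 0 mM by at most 0.52 log2 units with all 16 arrays. All 5 that had a probe set of their own passed the filter, out of 6 listed, and their lowest value on any array was 8.65. At 1 and at 5 mM 1 of the 5 fell, where 10.5% and 13.5% of all probe sets were called down. From 25 to 100 mM limma called 0, where 7.66%, 7.08% and 7.26% were called down. The gene that fell was AT5G20500, which averaged 10.55 at 1 mM and 10.53 at 5 mM, against 11.01 ± 0.14 at 0 mM (SD, n = 6). Its changes were -0.46 (SE 0.12, limma adjusted p = 0.0179) and -0.48 (0.0132), both lost without either array of the dose (0.0689 to 0.251). Without solvent control 3, 2 of the 5 were called down at 1 mM and 1 at each other dose, with GRXC1 at 1 mM (-0.41, limma adjusted p = 0.0378) and AT2G20270 at 100 mM (-0.46, 0.0161) beside AT5G20500 at 1 to 50 mM (-0.46, -0.48, -0.34 and -0.33). Over all probe sets 27.2%, 27.4%, 20.5%, 19% and 20.6% were then called down at the 5 doses, so 1 of 5 is near the background share. GRXC2, a cytosolic glutaredoxin, stayed between 12.76 and 13.47 and GRXC1 between 9.75 and 10.78 over the 16 arrays. AT1G77370 lay between 10.13 and 10.88 and AT2G20270 between 8.65 and 9.40. The class median change was -0.20 at 1 mM and -0.21 at 100 mM. The 4 class II genes and the 10 TGA factors listed were not matched to their own probe set, and they were not analysed here.

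The other thiol enzymes with a probe set of their own differed from 0 mM by under 1 log2 unit at every dose. The thioredoxin reductase gene NTRC fell by 0.37 at 100 mM (SE 0.10, limma adjusted p = 0.0332) and was the only member tested of a list of 12 thioredoxins and reductases. That call was lost without any of 9 single arrays, among them either 100 mM array (0.124 and 0.302) and solvent replicate 2, BL replicate 1 or BL replicate 2 at 0 mM (0.0513 to 0.0574), and either array at 1 or 50 mM (0.0519 to 0.052). The change was -0.38 without solvent control 3 (limma adjusted p = 0.0117). Of 3 peroxiredoxin genes tested, out of 9 listed, 0 were called at any dose. Without solvent control 3 limma called all 3 down at 100 mM, AT3G52960 by -0.56, PRXIIF by -0.33 and AT3G11630 by -0.56 (limma adjusted p = 0.00626, 0.0379 and 0.000678), where 20.6% of all probe sets were called down, and 2, 0, 1 and 1 of them at 1, 5, 25 and 50 mM. Of 7 genes of glutathione synthesis and recycling, the glutathione reductase genes GR1 and GR were tested and not called. GR1 changed by 0.42 to 0.53 from 5 to 100 mM without solvent control 3 and was then called up at each of these doses (limma adjusted p between 0.00207 and 0.00732). No gene of these lists was called for BL at 0 mM, for BL under H2O2 or for the difference.

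The genes most like AT3G62950 over the 16 arrays also climbed up to 5 mM. Likeness was the Pearson correlation of log2 signals with AT3G62950 among 6996 other genes with a probe set of their own that passed the filter, whose median correlation was -0.17. It is a description, since the arrays share doses and the gap between 0 mM and the rest. The 8 nearest were AT3G47540 at 0.990, AT4G33666 at 0.985, AT3G26510 at 0.980, AT3G15630 at 0.978, AT2G32150 at 0.978, AT2G14160 at 0.975, SIS at 0.975 and AT5G08350 at 0.972. SIS carries the name salt induced serine rich. AT3G47540 averaged 7.61 at 1 mM, 8.92 at 5 mM and 8.42 at 100 mM, against 6.08 at 0 mM. AT3G26510 averaged 12.93 at 5 mM and 12.92 at 100 mM, against 12.05 at 0 mM, so a like shape came with a change of under 1 log2 unit. AT2G14160, near the lowest value at 0 mM with 2.48, averaged 6.38 at 5 mM and 5.89 at 100 mM.

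**Figure D4:**
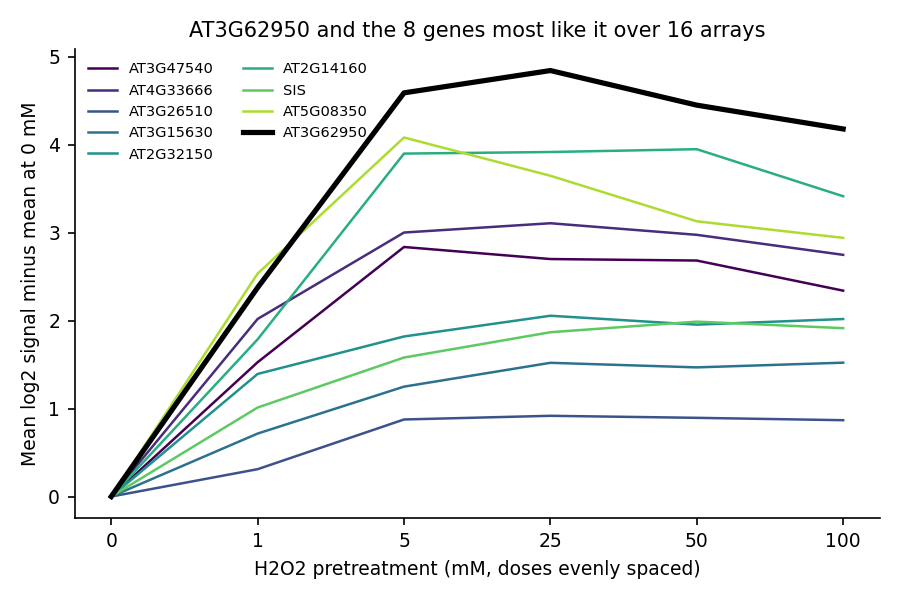
Mean log2 signal minus the mean at 0 mM (vertical axis) by H2O2 dose in mM (horizontal axis, evenly spaced) for AT3G62950, as the thick line, and the 8 genes most like it by Pearson correlation over 16 arrays. All 9 lines climb up to 5 mM, and that of AT3G62950 reaches the largest change, 4.84 at 25 mM.

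Within the 10 H2O2 arrays alone other genes were nearest. They were AT1G22570 at 0.984, AT1G61740 at 0.982, AT2G03310 at 0.980, AT3G57420 at 0.976 and AT4G10910 at 0.972, and 0 of these 5 were among the 8. AT4G10910 was, however, among the 8 nearest over the 15 arrays without solvent control 3, at 0.982. AT2G03310 and AT4G10910 averaged 8.67 and 7.74 at 25 mM, against 7.30 and 4.91 at 0 mM. AT1G61740 averaged 10.70 at 1 mM and 11.85 at 25 mM, and with 11.49 at 0 mM it was not raised by H2O2 as AT3G62950 was. AT4G33666 and AT3G26510 had correlations of 0.959 and 0.963 within these 10 arrays.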

How the data were processed

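Arrays of 16 seedling samples were analysed, grouped by their labels. The deposited values are log2 signals. GCRMA is named in the submitters' processing notes, its version and settings are not given in the sources used here, and the log2 scale follows from the range of the values. No other scaling was applied. Arrays have no read depth, and their number limits the precision. Of 22810 probe sets, 64 controls were left out, and 13140 of the other 22746 had at least 5 on at least 2 arrays. The platform annotation gave 13513 probe sets 1 gene, 503 several and 8730 none. Names came from the RefSeq table of TAIR10.1, matched for 13436, used for names and neighbours only. Membership of the lists is general knowledge, since these tables hold no descriptions. Each gene stands on 1 probe set, that of the highest mean among those with 1 gene.

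limma 3.58.1 in R 4.3.3 (lmFit, eBayes) was fitted to all 13140, and calls were made at p under 0.05 after Benjamini-Hochberg adjustment. The fit of BL at 0 mM used 6 arrays (4 residual degrees of freedom), the BL terms by H2O2 16 arrays (8), and doses 16 arrays with BL additive (9). The fits were also run on simulated data with independent normal noise for each probe set. Those data held no outlying array and no lower limit of signal, so they do not check the fits for such features. No dose above 0 mM has a replicate within a BL state. The members and lists were chosen with earlier results of these data known. Named were AT3G62950, the glutaredoxins with a probe set of their own, its 3 neighbours on either side, the 8 and 5 genes most like it, and up to 3 called members of each other list. Alternatives were the filter, a further quantile normalization, a trended and robust prior, each array left out, the replicate block, and solvent or BL arrays alone.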

Additional observations from a re-analysis of the deposited data

How the results depend on the processing

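AT3G62950 kept its direction in every dose difference and its lack of a BL call in all alternatives run, except that the difference of its BL responses, 0.97, was -0.26 without solvent control 3. Leaving out each array gave -2.10 to -0.16 for BL at 0 mM, -0.57 to -0.30 for BL under H2O2, -0.26 to 1.68 for their difference, and 2.14 to 2.98, 4.35 to 5.19, 4.30 to 5.44, 3.99 to 5.05 and 3.94 to 4.78 for the 5 doses. Its dose differences have no test. For replicate numbers 1, 2 and 3 at 0 mM the correlations of deviations between BL and solvent arrays were 0.18, 0.11 and -0.07. Arrays numbered 1 and 2 correlated best with their own number, and those numbered 3, solvent control 3 among them, did not. Whether the numbers pair the arrays cannot be told from these values. With the replicate block AT3G62950 changed by -1.39 (limma adjusted p = 0.523), and the probe sets called for BL at 0 mM were 0 in place of 3, with 974 at an unadjusted p under 0.05. That count was also 0 with the trended prior (1181 unadjusted) and 0 with a filter of 7 (879), and 100 in the fit to 16 arrays. Leaving out each array gave 0 to 93, the highest without solvent replicate 2, and 52 without solvent control 3. The 8 called for the difference of BL responses were 13 without a filter, 2 with a filter of 7 and 4 with the trended prior. Leaving out each array gave 3 to 1786, the highest without solvent replicate 2, with 110 without solvent control 3, 16 without BL replicate 2, 3 without BL replicate 1 or 3 at 0 mM, and 5 without either 100 mM array. Solvent arrays alone, 1 against 3, called 0 at each of the 5 doses (525 to 806 unadjusted), with 2 residual degrees of freedom. BL arrays alone called 2545 to 3473. Leaving out each array gave 676 to 5981 at 1 mM, 879 to 5984 at 5 mM, 300 to 4928 at 25 mM, 314 to 4584 at 50 mM and 435 to 5034 at 100 mM, the highest without solvent control 3 and the lowest without an array of that dose. Calls of named genes were lost in 62 of 417 values, 19 of them with solvent arrays alone and 27 without an array of that dose, and 0 reversed. No filter cost GRX480 its call at 100 mM (limma adjusted p = 0.0507) and AT5G18600 its call at 50 mM (0.0559). Counting every probe set changed no family count, as each listed gene had 1. Without solvent control 3, 5 of the 8 genes most like AT3G62950 were shared.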

Other observations

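Solvent control 3 can be set against genes chosen without it. The 8 genes most like AT3G62950 over the other 15 arrays were AT3G47540, AT2G25200, AT4G33666, AT2G14160, AT5G16650, AT3G15630, AT4G10910 and AT3G26510. On solvent control 3, 5 of them lay above each of the other 5 arrays at 0 mM and 1 lay below them all. Over 6997 genes with a probe set of their own that passed the filter, 29.9% lay above and 45.2% below. Since all 8 were picked for likeness to 1 gene, they are not independent of one another, and the count is a description. Other genes raised by H2O2 were not counted in this way. AT3G47540 was 8.34 on that array, between 7.47 and 9.01 on the H2O2 arrays and at most 5.85 on the other 0 mM arrays. AT4G33666 was 9.16 there, at least 9.51 on the H2O2 arrays and at most 7.51 on the other 0 mM arrays. AT2G25200 went otherwise, with 9.57 on that array, within 9.29 to 9.63 on the other 0 mM arrays and at least 10.39 on the H2O2 arrays, and AT4G10910 was at 3.48, below the 5.06 to 5.43 of the other 0 mM arrays.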
